A study of Mus musculus with 4 samples.

Results

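The transforming growth factor beta (TGF-beta) ligands, receptors and Smads were followed across mouse intestine, isolated crypts and crypt-villus organoids. The set holds 10 of the 30107 genes read on the arrays: the ligands Tgfb1, Tgfb2 and Tgfb3, the receptors Tgfbr1, Tgfbr2 and Tgfbr3, and the signal transducers Smad2, Smad3, Smad4 and Smad7. A spot was taken as a member when it was no control spot and carried 1 of these 10 gene names in the scanner files, which gave 17 probes and 35 of the 43020 spots on each array. The rule uses no measured value.

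Total RNA came from 4 sources: o-organoid, y-organoid, crypt and whole intestine. All were labelled as wild type C57/BL6 mice, with no allele or agent named, and the sources read give no ages. Stem cells of the gut epithelium sit at the base of pits called crypts, and a crypt-villus organoid is a cultured epithelial body grown from them. What the letters o and y stand for, and how many animals or cultures were pooled, was stated in none of the sources read. Each source was labelled with the dye Cy3, from 40 ng of RNA for o-organoid and 20 ng for the others, and hybridised to 1 Agilent array, so there are no replicates and no comparison below carries a test between conditions. The series title concerns acetylcholine made outside neurons and stem cells that carry Lgr5.

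TGF-beta ligands are secreted bound to a latency peptide and must be released from it before they act. A freed ligand is bound by the type II receptor TGFBR2, which phosphorylates the type I receptor TGFBR1; betaglycan, encoded by Tgfbr3, is a co-receptor that presents ligand and matters most for TGF-beta 2. TGFBR1 phosphorylates SMAD2 and SMAD3, which join SMAD4 and enter the nucleus to regulate transcription, while SMAD7 is an inhibitor whose gene is itself a target of the pathway. In the gut this pathway is known for restraining epithelial growth and for its part in connective tissue and immune regulation.

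Signals are log2 values of the processed intensity relative to the 75th percentile of the same array, which lay at an intensity of 641 for o-organoid, 281 for y-organoid, 469 for crypt and 386 for intestine. Signals of different probes are not comparable with each other, so each gene is compared only with itself across arrays. Of the spots, 55.1% were well above background on the o-organoid array, 54.2% on the y-organoid, 51.9% on the crypt and 58.7% on the intestine array, by the scanner software's flag. Where a probe was dim on 1 of 2 arrays, its fold is a lower limit, given as at least N-fold. For that limit the dim side took the larger of 2 values, its measured signal or the array's detection floor, which is the lowest signal of any probe above background there (-5.00 for o-organoid, -4.20 for y-organoid, -4.52 for crypt and -4.48 for intestine). Errors given as technical SD come from repeated spots or from the scanner software and leave out labelling and biological variation.

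Epithelial markers were present on every array, and the summed levels of connective tissue, muscle, endothelial, immune and pancreas markers were highest on the intestine array. The fibroblast marker Fbln1 was an exception, with signals of 2.10 for o-organoid, 0.60 for y-organoid, 2.51 for crypt and 2.25 for intestine. So was the endothelial marker Kdr, with 1.11, 2.94, 2.11 and 2.79 in the same order. All 8 epithelial markers were well above background on all 4 arrays, with summed levels of 554 for o-organoid, 565 for y-organoid, 768 for crypt and 599 for intestine, in multiples of the array's 75th percentile. The 3 crypt stem cell markers were above background on all 4 arrays, with summed levels of 30.6, 37.0, 11.4 and 4.37 in the same order. Of 7 fibroblast markers, 1 (Fbln1) was above background on each of the o-organoid, y-organoid and crypt arrays and 7 on the intestine array, with summed levels of 4.37, 1.66, 5.82 and 51.3. Of 6 smooth muscle markers, 0 were above background on the o-organoid, y-organoid and crypt arrays and 5 on the intestine array (0.108, 0.173, 0.112 and 56.3). Of 6 endothelial markers the numbers above background were 2, 2, 2 and 5, with summed levels of 2.28, 7.87, 4.46 and 8.22, carried mostly by Kdr. Cdh5, Emcn and Cldn5 were above background on intestine alone, and Tek on no array. Of 6 immune markers the numbers above background were 4, 3, 5 and 6 (1.69, 2.50, 2.85 and 24.9). Pancreas markers summed to 1.02, 0.754 and 0.383 on the o-organoid, y-organoid and crypt arrays and to 3628 on the intestine array. The animals also differed: Xist, the RNA that coats the silenced X chromosome of female cells, was detected on intestine alone (-1.17), whereas the Y-linked Ddx3y and Eif2s3y were above background on the other 3 arrays (-1.04 to 1.28). Tissue, animal and sex thus cannot be told apart in the comparison of crypt with intestine.

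The 3 ligand genes were all brightest on the intestine array, and Tgfb1 was the only ligand above background on either organoid array. Tgfb2 and Tgfb3 were well above background on intestine alone. The probes of Tgfb1 and Tgfb2 are shown because both lie in the coding sequence for the end of the secreted ligand, where the family is most alike; capitals mark the bases that are identical between the 2 probes where they align without gaps, 28 of 41 bases (68.3%). The Tgfb1 probe lies at chr7:26489877-26489936 (plus strand) and the Tgfb2 probe at chr1:188449333-188449392 (minus strand) of build mm9.
Tgfb1: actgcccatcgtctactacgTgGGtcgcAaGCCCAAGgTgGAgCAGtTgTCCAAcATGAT
Tgfb2: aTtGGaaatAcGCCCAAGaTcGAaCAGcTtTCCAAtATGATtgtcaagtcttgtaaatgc

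Tgfb1, the ligand made widely by epithelial and immune cells, was spotted 10 times on each array. Its 10 spots on the o-organoid array had a lowest, median and highest intensity of 41.9, 52.8 and 61.5, or -3.94, -3.60 and -3.38 as signals. On the y-organoid array they had intensities of 31.1, 35.4 and 54.3, and signals of -3.18, -2.99 and -2.37. All spots of both organoid arrays were well above background, and the signals of the 2 arrays did not overlap. On the crypt array 8 spots were used, after 2 outlier spots were left out, with signals of -5.44, -4.89 and -4.20, and 0 of them passed the background flag. On the intestine array the signals were -1.26, -1.21 and -1.11, above every spot of the other arrays. The mean signals were -3.59 ± 0.16 for o-organoid, -2.92 ± 0.23 for y-organoid, -4.84 ± 0.41 for crypt and -1.21 ± 0.05 for intestine (SD over spots of 1 array). Relative to intestine, Tgfb1 was lower by at least 9.97-fold on crypt. It was at least 3.04-fold higher on the y-organoid array than on the crypt array, and at least 1.91-fold higher on the o-organoid array, which is under the 2-fold that is counted here. With normexp, another background correction, the bound of crypt below intestine was 3.16-fold. The bounds above crypt were then 1.85-fold for y-organoid and 1.10-fold for o-organoid. With the scaling of the authors' deposited value table the o-organoid bound was 1.06 on the log2 scale, just past 2-fold. Between the organoids the difference, o-organoid minus y-organoid, was -0.67 (technical SD 0.28), and -0.03 with the deposited scaling.

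Tgfb3, the ligand associated with mesenchyme and palate closure, was also spotted 10 times, by a probe at chr12:87397804-87397863. Its mean signal was -5.08 ± 0.38 for o-organoid, -5.09 ± 0.62 for y-organoid, -4.97 ± 0.83 for crypt and -0.51 ± 0.09 for intestine (SD over spots). Well above background were 2, 0, 2 and 10 spots in that order. Relative to intestine, Tgfb3 was lower by at least 16.2-fold on crypt (4.66-fold with normexp), and its spots on the other 3 arrays overlapped. Tgfb2 had signals of -5.54, -4.799, -6.56 and -2.29 for o-organoid, y-organoid, crypt and intestine, and was above background on intestine alone, at an intensity of 79.2. Its level on crypt was at least 4.72-fold below that on intestine (2.10-fold with normexp). A further Tgfb2 probe was also above background on intestine alone (-4.04), close to that array's lowest measurable signal, and gave a bound of 1.40-fold.

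**Figure D1:**
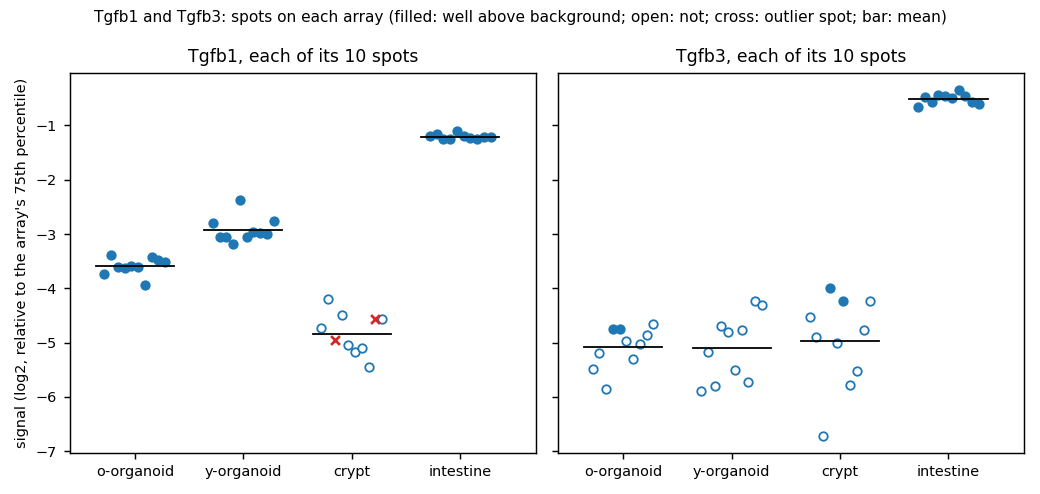
Signal (log2, relative to the array's 75th percentile) of each of the 10 spots of Tgfb1 and Tgfb3 on the o-organoid, y-organoid, crypt and intestine arrays; filled points are well above background, open points are not, crosses are outlier spots left out of the mean, and bars are means. On this scale Tgfb1 forms 3 separate levels above background (means -3.59, -2.92 and -1.21) with crypt below, while Tgfb3 stands at -0.51 on the intestine array and between -5.09 and -4.97 on the others. With the deposited scaling the difference of Tgfb1 between the organoids, o-organoid minus y-organoid, was -0.03.

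The bounds of the 3 ligands between crypt and intestine moved with the fibroblast, smooth muscle, endothelial, immune and pancreas markers, whose summed levels are given above. The endothelial sum moved least (4.46 on crypt and 8.22 on intestine), and its brightest marker, Kdr, differed by -0.68. Of the 6 immune markers, 5 were measured and at least 2-fold lower on crypt than on intestine, among them Csf1r by 32.3-fold. Their part in the ligand values was not tested. In RNA of mixed tissue, fewer cells of a type and less RNA per cell cannot be told apart. Against that background, 57.6% of the 2494 genes above background on intestine and not on crypt had a bound of at least 2-fold. Bounds past 2-fold were thus common among such genes, while the share past the ligands' own bounds was not counted.

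Among the receptors, Tgfbr1 stayed near 1 level, Tgfbr2 was highest on both organoid arrays and lowest on crypt, and Tgfbr3 was above background on intestine alone. Tgfbr1, the type I receptor kinase, had signals of -0.96 for o-organoid, -1.31 for y-organoid, -1.37 for crypt and -1.07 for intestine, by a probe at chr4:47427736-47427795. These span 0.41, and the 4 differences were -0.30 for crypt minus intestine, 0.06 for y-organoid minus crypt, 0.41 for o-organoid minus crypt and 0.35 for o-organoid minus y-organoid, with technical SDs of 0.21 to 0.22. A further Tgfbr1 probe lay near the lowest measurable signals (-4.82, -4.28, -4.54 and -4.03) and was above background on o-organoid and intestine. The remaining 2 Tgfbr1 probes were not above background on any array.

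Tgfbr2, the type II receptor that binds ligand, had signals of 2.36 for o-organoid, 2.28 for y-organoid, -0.33 for crypt and 1.31 for intestine. The intensities behind them were 3302, 1365, 373 and 959. Both organoids were above intestine, and intestine was above crypt, each step by more than the technical SD of 0.20. Tgfbr2 was 3.13-fold lower on the crypt array than on the intestine array (-1.65), but under 2-fold (-0.91) with the deposited scaling. Summed levels of fibroblast (5.82 on crypt, 51.3 on intestine), smooth muscle (0.112 and 56.3), immune (2.85 and 24.9) and pancreas markers (0.383 and 3628) moved with it. The endothelial sum moved least (4.46 and 8.22). The part of these markers in it was not tested. Tgfbr2 was 6.12-fold higher on the y-organoid array than on the crypt array (2.61) and 6.49-fold higher on the o-organoid array (2.70). The organoids differed by 0.08, which is under the technical SD. On the o-organoid, y-organoid and crypt arrays alike, 0 of 6 smooth muscle and 1 of 7 fibroblast markers were above background. In the same order, summed levels were 30.6, 37.0 and 11.4 for crypt stem cell markers and 554, 565 and 768 for epithelial ones. They were 2.28, 7.87 and 4.46 for endothelial and 1.69, 2.50 and 2.85 for immune markers. The part of any of these markers in the Tgfbr2 differences was not tested.

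A further Tgfbr2 probe gave the same direction against crypt and another relation between the organoids. The first probe starts at base 4386 of the transcript (chr9:115997155-115997214, minus strand) and the further one at base 2045 (chr9:115999496-115999555, minus strand, mm9). The sequence of the further probe is shown because it reads the last codons of the receptor, and its capitals mark the stop codon.
Tgfbr2: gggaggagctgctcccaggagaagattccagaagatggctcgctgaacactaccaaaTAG
This coding-end probe had signals of -1.62 for o-organoid, 0.77 for y-organoid, -3.66 for crypt and -2.28 for intestine. Its differences were -1.39 for crypt minus intestine, 4.44 for y-organoid minus crypt, 2.04 for o-organoid minus crypt and -2.40 for o-organoid minus y-organoid. The 2 probes thus differed by 2.48 in the comparison of the organoids, a gap that 71 of 3667 genes with at least 2 measured probes (1.94%) equalled or passed. In y-organoid minus crypt their gap was 1.82, reached by 8.77% of such genes. In crypt minus intestine it was 0.26, near the median gap of 0.27. Tgfbr2 was therefore above crypt on both organoid arrays by either probe, whereas its relation between the organoids depended on the probe.

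Profiles close to Tgfbr2 over the 4 arrays were sought by root mean square distance between profiles centred on their own means. Tgfbr2 was taken by its first probe only, and the further probe, whose profile differs, was not used. Of 14439 genes above background on all 4 arrays, only those with plain symbols were eligible. Predicted genes, clones and symbols with a hyphen or further capitals were left out. The closest of the eligible genes were Pycr1 (0.13), F3 (0.16) and Lcp1 (0.19). Pycr1 encodes an enzyme of proline synthesis, F3 encodes tissue factor, which starts blood clotting, and Lcp1 encodes the actin-bundling protein L-plastin. Pycr1 had signals of -0.70 for o-organoid, -0.89 for y-organoid, -3.62 for crypt and -1.64 for intestine. Tgfbr2 was the only member above background on all 4 arrays with a span of at least 1.

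Tgfb1 and Tgfbr2 had the largest bounds or differences above crypt on both organoid arrays, so the 250 bases upstream of their start sites are shown, from RefSeq and build GRCm38.p6. Capitals mark matches to CAGAC, which holds the core of the Smad binding element, or to CCAAT, on either strand. The windows are chr7:25686752-25687001 (plus strand) for Tgfb1 and chr9:116175364-116175613 (minus strand) for Tgfbr2.
Tgfb1: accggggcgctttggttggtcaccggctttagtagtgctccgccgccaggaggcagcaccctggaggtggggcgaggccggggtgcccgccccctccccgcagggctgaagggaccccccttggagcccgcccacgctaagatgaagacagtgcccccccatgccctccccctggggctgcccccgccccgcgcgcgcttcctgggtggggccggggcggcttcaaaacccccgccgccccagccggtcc
Tgfbr2: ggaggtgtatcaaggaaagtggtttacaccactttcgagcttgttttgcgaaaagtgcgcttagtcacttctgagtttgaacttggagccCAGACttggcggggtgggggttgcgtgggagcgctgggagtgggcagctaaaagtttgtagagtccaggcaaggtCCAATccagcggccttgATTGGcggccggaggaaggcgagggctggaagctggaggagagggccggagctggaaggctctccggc
The Tgfb1 window is 75.2% G or C and holds 5 matches to GGGCGG, the GC box, on either strand, and 0 to CAGAC or CCAAT. The Tgfbr2 window is 58.4% G or C and holds 1 match to CAGAC, 2 to CCAAT and 0 to GGGCGG. Of 32851 upstream windows of 250 bases, 42.2% hold CAGAC, 33.8% CCAAT and 32.7% GGGCGG, so each of these matches is common, and none is shown to be a site. A window was listed for 5 of the 10 members.

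Tgfbr3, the betaglycan co-receptor, had signals of -7.17 for o-organoid, -6.38 for y-organoid, -6.63 for crypt and -1.36 for intestine, by 1 probe at chr5:107535818-107535877. It was detected on intestine alone, and its level on crypt was at least 8.96-fold lower (3.21-fold with normexp). As for the ligands, fibroblast, smooth muscle, endothelial, immune and pancreas markers moved with this bound, the endothelial sum least. The part of these markers in it was not tested.

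**Figure D2:**
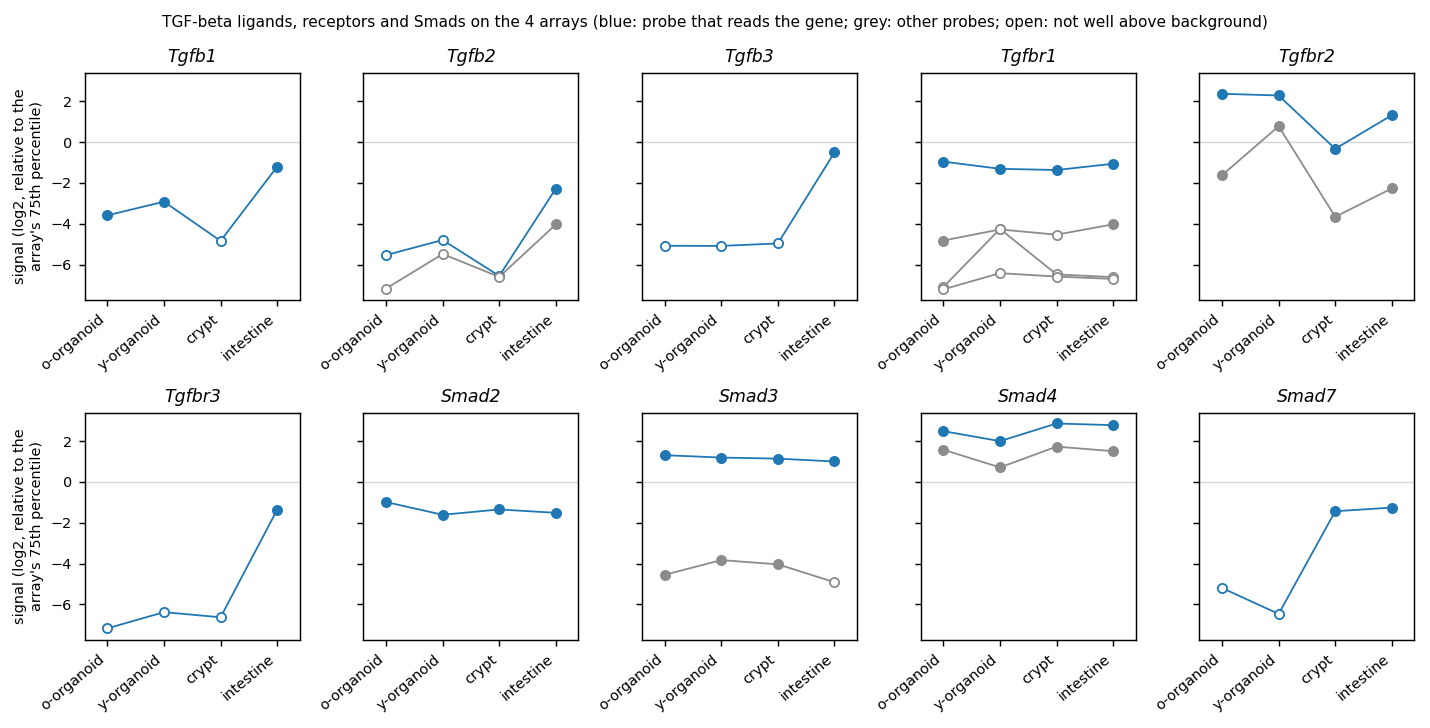
Signal (log2, relative to the array's 75th percentile) of each probe of the 10 genes on the o-organoid, y-organoid, crypt and intestine arrays; blue is the probe that reads the gene, grey the other probes, filled points are well above background, open points are not, and lines join the values of 1 probe without implying an order. Tgfbr2 is at 2.36 and 2.28 on the organoid arrays and -0.33 on crypt, Smad7 is above background on crypt (-1.43) and intestine (-1.25), and Smad3 spans 0.31.

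The receptor-activated Smads and Smad4 were above background on all 4 arrays and stayed within 2-fold in every comparison by the probes that read them. Smad3 had signals of 1.31 for o-organoid, 1.196 for y-organoid, 1.14 for crypt and 1.0 for intestine (chr9:63494574-63494633), a span of 0.31 and the narrowest among the members above background on all 4 arrays. A further Smad3 probe was near the lowest measurable signals (-4.54, -3.83, -4.03 and -4.91). Smad2, on chromosome 18, had signals of -0.98, -1.61, -1.35 and -1.51 in the same order. Its widest difference was 0.62 for o-organoid minus y-organoid (1.54-fold, technical SD 0.21), and the other 3 lay between -0.26 and 0.36. Signs of small differences depended on the scaling: with the deposited scaling Smad3 in y-organoid minus crypt (0.05, technical SD 0.20) had -0.46, and Tgfbr1 in crypt minus intestine (-0.30, technical SD 0.21) had 0.43.

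Smad4, the common partner of the receptor-activated Smads, had signals of 2.49 for o-organoid, 2.0 for y-organoid, 2.87 for crypt and 2.78 for intestine. The y-organoid array was lowest, 1.82-fold below crypt (-0.87, technical SD 0.20), and o-organoid was 1.30-fold below crypt (-0.38). A further Smad4 probe had signals of 1.58, 0.71, 1.73 and 1.51 in the same order, with -1.02 for y-organoid minus crypt, just past 2-fold. Crypt and intestine differed by 0.08 by the first probe and by 0.22 by the further one, the first under its technical SD.

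Smad7, an inhibitory Smad, divided the arrays differently from Smad2, Smad3 and Smad4. Its signal was -5.19 for o-organoid and -6.46 for y-organoid, neither well above background, against -1.43 for crypt and -1.25 for intestine, which were both above it at intensities of 174 and 162. Relative to crypt, Smad7 was lower by at least 11.9-fold on o-organoid and by at least 6.80-fold on y-organoid. The larger bound for o-organoid reflects the lower limit of that array and shows no lower level there. Crypt and intestine differed by -0.18 with a technical SD of 0.21 (0.56 with the deposited scaling). The gene was read by 1 probe, so no other probe of it could be set beside these values.

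The members past 2-fold were counted in each comparison beside all genes. In crypt minus intestine, 6 members were above background on both arrays, of which 0 were at least 2-fold higher and 1 (Tgfbr2) at least 2-fold lower, where 7.37% of all genes measured on both were higher and 7.61% lower. No member was above background on crypt alone, where 24.4% of 508 such genes had a bound of at least 2-fold. The other 4 (Tgfb1, Tgfb2, Tgfb3 and Tgfbr3) had a bound of at least 2-fold lower, as had 57.6% of the genes above background on intestine alone. In y-organoid minus crypt, 5 members were measured on both, of which Tgfbr2 was higher and 0 were lower, where 16.0% and 13.3% of all genes were. By bounds, Tgfb1 was higher and Smad7 lower, as were 52.9% of the 1487 genes above background on y-organoid alone and 35.0% of the 858 above background on crypt alone. In o-organoid minus crypt, Tgfbr2 was again the 1 member of 5 that was higher and 0 were lower, where 7.95% and 12.2% of all genes were, and Smad7 was lower by its bound, as were 72.9% of the 693 genes above background on crypt alone. The bound on Tgfb1 was under 2-fold there, while 18.2% of the 1492 genes above background on o-organoid alone passed it. In o-organoid minus y-organoid, 0 of 6 measured members passed 2-fold in either direction, where 8.25% of all genes were higher and 16.9% lower. No member was above background on 1 organoid alone, where bounds passed 2-fold in 11.9% of 956 genes seen on o-organoid and 89.7% of 786 seen on y-organoid. The median difference of the measured members was -0.05, 0.05, 0.36 and 0.23 in these 4 comparisons, and that of all measured genes 0.15, 0.10, -0.03 and -0.16. The comparisons share arrays (crypt enters 3 of the 4), so their values are not independent of each other.

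These counts depended on the scale on which arrays were set beside each other. With the scaling of the deposited value table the medians of all genes in the 4 comparisons were 0.89, -0.41, 0.10 and 0.48. On that scale Tgfbr2 was no longer 2-fold lower in crypt minus intestine, Smad4 was 2-fold lower in y-organoid minus crypt (-1.38), and Smad2 (1.26) and Smad4 (1.13) were 2-fold higher in o-organoid minus y-organoid. Over all genes, 1120 were higher and 1156 lower in crypt minus intestine, against 6384 and 556 on the deposited scale, 1858 and 924 after quantile normalization, and 658 and 1491 with the 75th percentile taken over probes above background on all 4 arrays. In y-organoid minus crypt the split was 2382 higher and 1980 lower, against 1157 and 3982 with the deposited scaling and 3294 and 1484 with that percentile. In o-organoid minus crypt it was 1193 and 1833, against 1547 and 1523 with the deposited scaling and 1724 and 1417 with that percentile. In o-organoid minus y-organoid it was 1283 and 2631, against 4099 and 852 on the deposited scale and 1549 and 1819 after quantile normalization. Counts of the pathway lists given below with another scaling are to be read beside these splits. The higher Tgfbr2 and lower Smad7 on both organoid arrays than on crypt held at 2-fold under each scaling.

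**Figure D3:**
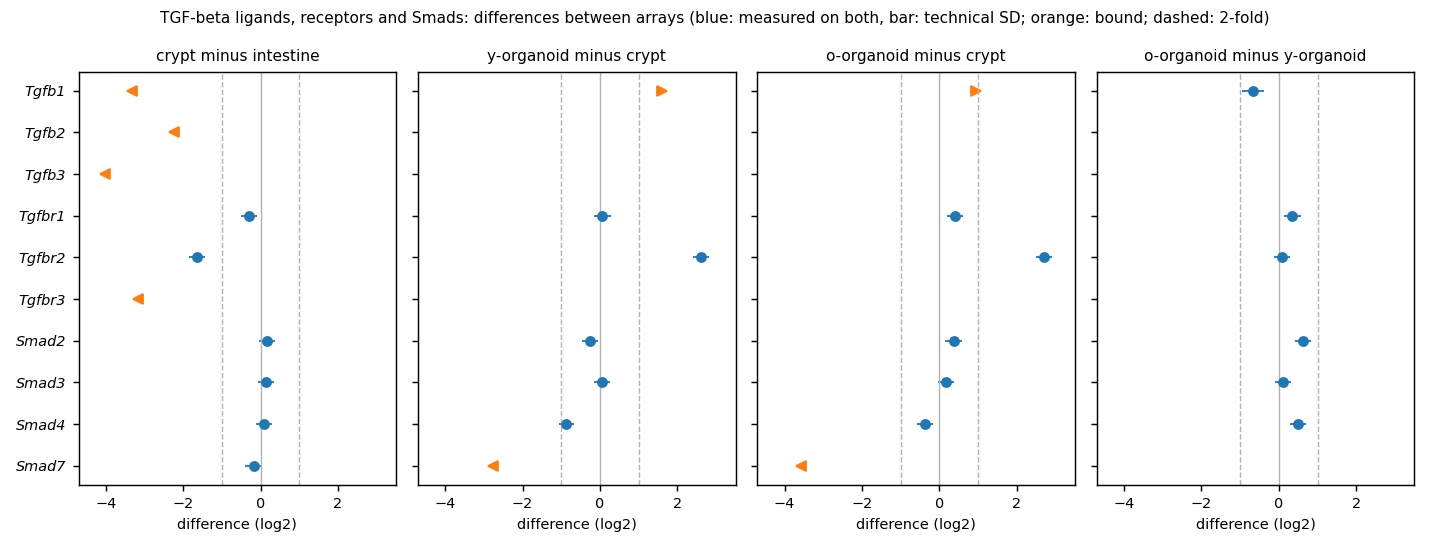
Difference in signal (log2, first array minus second) of the 10 genes in the 4 comparisons; blue points are genes above background on both arrays with bars of the technical SD, orange triangles are bounds, rows with no symbol were above background on neither array, and dashed lines mark 2-fold. Tgfbr2 lies at -1.65, 2.61, 2.70 and 0.08 from left to right, and Smad7 has bounds of 6.80-fold and 11.9-fold on the lower side of the organoid comparisons with crypt.

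Of 12 genes that store and free the ligands, 8 were lower on the crypt array than on the intestine array, 5 by a measured difference and 3 by a bound, and the latent TGF-beta binding protein gene Ltbp4 and the integrin gene Itgav were higher on y-organoid than on crypt. The list holds binding proteins of the latent complex, anchoring receptors, integrins that pull the ligand free and the protease Furin. In crypt minus intestine, 5 of 7 measured genes were at least 2-fold lower and 0 higher (7.61% and 7.37% of all genes), with a median of -2.54. The other 2 measured genes, Itgb6 (0.07) and Furin (-0.10), were within 2-fold, and 2 of the 12 were above background on neither array. The 3 genes above background on intestine and not on crypt all had a bound of at least 2-fold lower, where 57.6% of all such genes did. Ltbp4 was 37.6-fold lower on the crypt array (signals -2.35 for crypt and 2.88 for intestine), Ltbp2 13.9-fold, Nrros, which anchors latent TGF-beta on myeloid cells, 8.86-fold, and Ltbp3 5.83-fold. Lrrc32, which anchors it on regulatory T cells and platelets, was at least 54.8-fold lower, and the microfibril gene Fbn1 at least 6.88-fold. These values again moved with the fibroblast, smooth muscle, immune and pancreas markers, whose part in them was not tested.

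In y-organoid minus crypt, 2 of 7 measured latency and activation genes were higher and 0 lower (16.0% and 13.3% of all genes), with a median of 0.82. This split turned with the scaling, to 1 higher and 2 lower with the deposited one, and to 4 higher and 0 lower with means over probes or with the 75th percentile over probes above background on all arrays. Ltbp4 was 6.49-fold higher (signals 0.35 for y-organoid and -2.35 for crypt) and the integrin subunit gene Itgav 2.83-fold, though Itgav was under 2-fold with normexp background correction (0.92) and the deposited scaling (0.99). Itgb6, whose product pairs with that of Itgav to free latent ligand, differed by 0.95. In o-organoid minus crypt, 0 of 7 were higher and 1, Furin, was 2.06-fold lower (7.95% and 12.2% of all genes), with a median of 0.12, while 2 were higher with means over probes. Thbs1, whose product thrombospondin 1 can activate latent TGF-beta, was above background on o-organoid (-2.68) and neither y-organoid nor crypt, and was at least 3.598-fold higher on o-organoid than on crypt and at least 2.87-fold higher than on y-organoid; with normexp these bounds were under 2-fold, and Furin was under 2-fold with normexp and with each other scaling. Between the organoids, Ltbp4 (-2.10 by this probe and -1.63 by a further one), Ltbp3 (-1.40) and Itgav (-1.03) were at least 2-fold lower on o-organoid, 3 of 7 measured genes (16.9% of all genes), with a median of -0.44. With the deposited scaling Ltbp3 (-0.76) and Itgav (-0.39) were within 2-fold, and the count was 1 higher and 1 lower, as it was with quantile normalization.

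Among 16 regulators of the receptors and Smads, the inhibitory Smad6 and the co-repressor gene Skil were lower on both organoid arrays than on crypt, and Tgif2 was higher. Smad6, the other inhibitory Smad, had signals of -4.66 for o-organoid, -4.42 for y-organoid (not above background), -1.31 for crypt and -0.88 for intestine. It was 10.2-fold lower on o-organoid than on crypt and at least 7.42-fold lower on y-organoid, as Smad7 was on both by its bounds. The o-organoid signal lay near that array's detection floor of -5.00, and with normexp the difference was -1.86 and the y-organoid bound 2.28-fold. Skil, whose product SnoN represses Smad complexes, had signals of -2.53, -1.95, 0.02 and 0.75 in that order, and was 5.84-fold lower on o-organoid and 3.90-fold lower on y-organoid than on crypt. A further Skil probe gave -2.72 and -1.30. Tgif2, a homeobox co-repressor, was above background on the organoid arrays (-2.19 and -0.88) and on neither crypt nor intestine, and was at least 4.06-fold (o-organoid) and 10.1-fold (y-organoid) higher than on crypt. With normexp the o-organoid bound was under 2-fold.

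In counts, the regulators had 3 of 12 measured genes lower and 0 higher in o-organoid minus crypt (12.2% and 7.95% of all genes; median -0.04), and 1 higher and 1 lower of 11 in y-organoid minus crypt (16.0% and 13.3%; median 0.07). With the deposited scaling the second count was 1 higher and 3 lower. The higher one was Trim33 (3.09-fold), whose product binds SMAD2 and SMAD3 and modifies SMAD4. Crypt minus intestine had 2 of 12 lower and 0 higher (7.61% and 7.37% of all genes; median -0.18), and 2 lower and 3 higher with the deposited scaling. Acvrl1, a type I receptor of endothelium, was 15.1-fold lower, and Pmepa1, an inhibitor of receptor signalling, 4.12-fold lower (-2.04, and -2.01 by a further probe). Eng, the endothelial co-receptor endoglin, was at least 18.8-fold lower. Of 6 endothelial markers, 1 by a measured difference and 3 by a bound were at least 2-fold lower on crypt as well. Kdr differed by -0.68, and Tek was above background on neither array. The part of these markers in the Acvrl1 and Eng values was not tested. In o-organoid minus y-organoid, 4 of 13 were lower and 0 higher (16.9% and 8.25% of all genes; median -0.31): Acvrl1 (-1.56), Zfyve9 (-1.48), whose product SARA brings SMAD2 and SMAD3 to the receptor, Tgif2 (-1.31) and Trim33 (-1.03). With the deposited scaling 0 of the 13 were lower and 3 higher in that comparison. Fkbp1a, whose product FKBP12 holds the type I receptor inactive, differed by at most 0.24 in the 4 comparisons.

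Of 12 genes known in various cells to respond to TGF-beta, 4 were measured in each comparison, and Tgfbi and Cdkn2b were lower on both organoid arrays than on crypt. Tgfbi, named for its induction by TGF-beta and encoding a matrix protein, had signals of -0.87 for o-organoid, -0.87 for y-organoid, 4.04 for crypt and 4.90 for intestine. It was 30.1-fold lower on o-organoid and 30.0-fold lower on y-organoid than on crypt, and 1.81-fold lower on crypt than on intestine. Immune markers, which include macrophage genes, summed to 1.69 on o-organoid, 2.50 on y-organoid and 2.85 on crypt, sums carried mostly by Cd3e and Csf1r. In o-organoid minus crypt 3 of 4 measured immune markers were at least 2-fold lower (median -1.25), and in y-organoid minus crypt 0 of 3. Lyz2, a lysozyme gene of macrophages, was 4.25-fold lower on o-organoid and at least 6.92-fold lower on y-organoid than on crypt, while Csf1r, the receptor gene of macrophage growth factor, differed by 0.49 and 0.74. Their part in the Tgfbi difference was not tested. Cdkn2b, the cell cycle inhibitor p15, had signals of 1.38, 1.001, 3.07 and 3.03 in that order. It was 3.24-fold lower on o-organoid and 4.21-fold lower on y-organoid than on crypt, with -1.41 and -2.64 by a further probe. The list's median was -1.29 in o-organoid minus crypt and -1.10 in y-organoid minus crypt, each over 4 genes of which 2 were lower and 0 higher (12.2% and 7.95% of all genes in o-organoid minus crypt, 13.3% and 16.0% in y-organoid minus crypt).

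Cdkn1a, the cell cycle inhibitor p21, was within 2-fold in all 4 comparisons by the probe that reads it. Its further probe had the opposite sign in 3 of them, and with means over probes Cdkn1a was 2-fold lower in o-organoid minus y-organoid (-1.06). Of all genes above background on intestine and not on crypt, 57.6% were lower on crypt by a bound of at least 2-fold. Of the 12 response genes, 7 were above background on intestine and not on crypt, and all 7 had such a bound. They were led by fibronectin, Fn1 (at least 149-fold), and collagen, Col1a1 (at least 109-fold), and Tagln, a smooth muscle gene, was 71.3-fold lower. Most of these matrix genes are also made by fibroblasts, whose markers moved with them, and that part was not tested. Snai2 was above background on o-organoid (-3.27) and on neither y-organoid nor crypt, at least 2.38-fold higher than on crypt (under 2-fold with normexp) and at least 1.90-fold higher than on y-organoid. In o-organoid minus y-organoid 0 of 4 measured response genes passed 2-fold (median -0.15; 1 higher with the deposited scaling), and Tgfbi differed by less than 0.01.

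The activin arm shares SMAD2, SMAD3 and SMAD4 with TGF-beta. Its list holds 6 genes for ligands or for the inhibin alpha subunit (Inha), and none was above background on all 4 arrays. Inha, Mstn and Nodal were above background on none, Inhba and Inhbb on intestine alone and Gdf11 on y-organoid alone. Of the 12 genes, 5 were measured in each comparison. The type II receptor gene Acvr2b had signals of 1.41 for o-organoid, 2.99 for y-organoid, 1.31 for crypt and 0.76 for intestine, and was 3.20-fold higher on y-organoid than on crypt, the 1 gene of 5 past 2-fold there (16.0% of all genes were higher; median -0.08). In o-organoid minus crypt the type I receptor gene Acvr1c (-1.15) and the follistatin-like gene Fstl3 (-1.09) were lower, 2 of 5 (12.2% of all genes), with a median of -0.33. In o-organoid minus y-organoid Acvr2b (-1.58) and Fstl3 (-1.01) were lower, again 2 of 5 (16.9% of all genes; median -0.89). With the deposited scaling the numbers lower were 1 in o-organoid minus crypt and 0 in o-organoid minus y-organoid, and with normexp 0 and 1. In crypt minus intestine 0 of 5 passed 2-fold (median 0.54), where 7.37% of all genes were higher and 7.61% lower. A further Acvr1b probe gave 1.66 there, against 0.67 by the probe that reads the gene. With means over probes 1 of 5 was higher. With the deposited scaling 3 were higher, Acvr1b (1.41), Acvr1c (1.60) and Acvr2b (1.28). On that scale 6384 of all 15197 measured genes were higher too, and their median was 0.89. Follistatin, Fst, which traps activin, and the activin subunit genes Inhba and Inhbb were above background on intestine alone, with bounds of at least 7.17-, 4.25- and 3.104-fold lower on crypt.

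Of the 3 Smads of bone morphogenetic protein signalling, Smad5 was within 2-fold and Smad1 depended on the probe. Smad5 had differences between -0.19 and 0.38, though 1.01 in o-organoid minus y-organoid with the deposited scaling. Smad1 had signals of -2.002 for o-organoid, -3.28 for y-organoid, -1.46 for crypt and -1.98 for intestine, and was 3.53-fold lower on y-organoid than on crypt, but a further probe gave -0.39 there. In o-organoid minus y-organoid Smad1 differed by 1.28, and by 0.56 by the further probe. Smad9 was above background on no array.

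**Figure D4:**
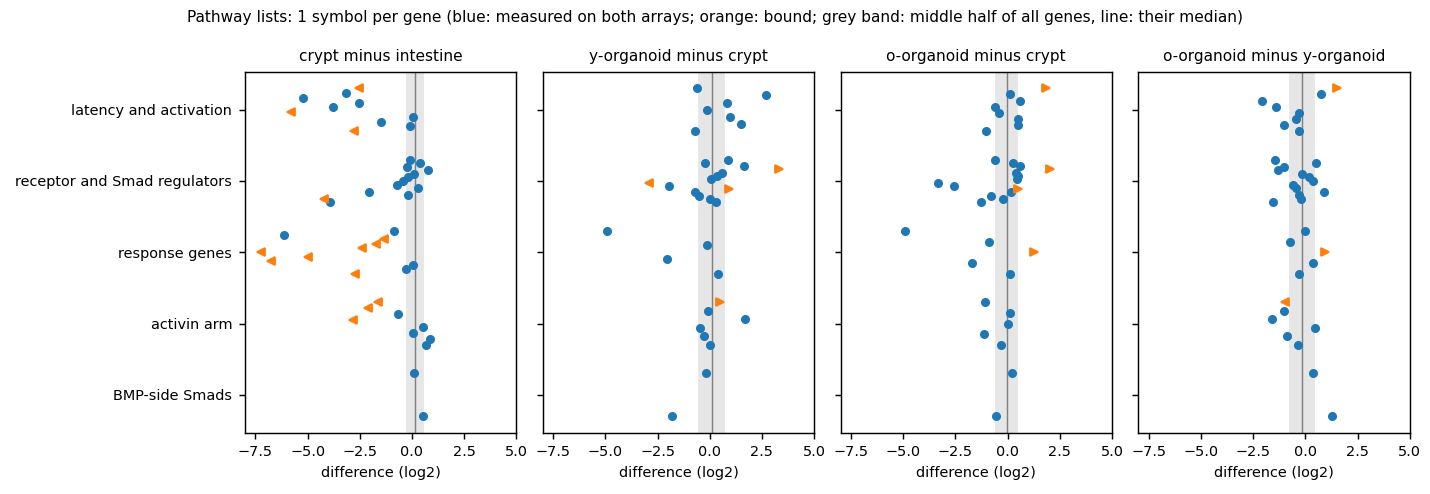
Difference in signal (log2, first array minus second) of each gene of the 5 pathway lists in the 4 comparisons; blue points are genes measured on both arrays, orange triangles are bounds, the grey band runs from the lower to the upper quartile of all measured genes and the line their median. In crypt minus intestine most latency and response genes lie far to the left of the band, with Ltbp4 at -5.23 and Tagln at -6.16, and in both organoid comparisons with crypt Tgfbi is the leftmost point at -4.91.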

How the data were processed

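Total RNA was extracted by the acid guanidinium method and labelled with a low-input amplification kit, from 40 ng of RNA for o-organoid and 20 ng for each other sample, per the labels' protocols. All 4 arrays lay on 1 slide, so no slide effect can be tested. Linear spot intensity values, as deposited by the authors, were made by Agilent Feature Extraction (version 10.7.3.1), which subtracted background and detrended them, per the file headers. A second table deposited by the authors holds a ratio, as a check against the scanner values showed: each processed intensity over 1 constant per array (36.9 for o-organoid, 25.2 for y-organoid, 29.5 for crypt, 40.5 for intestine), with column medians of 1.0, linear and with no centring of genes. Its tool is not given in the sources read. Coordinates in the file headers refer to build mm9, and no annotation of that build was used here.

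Control spots were left out, as were outlier spots (165, 154, 108 and 162 on the o-organoid, y-organoid, crypt and intestine arrays). No spot was saturated. Intensities were put on the log2 scale, the array's 75th percentile over all spots was subtracted, and spots of a probe were averaged. A probe counted as well above background where over 50% of its used spots did. Probes were named through the RefSeq table of assembly GRCm38.p6: of 39429 probes, 27234 matched on accession, 3576 on symbol and 565 on synonym, and 8054 retained the name in the file. The probe with the highest mean signal over the arrays stood for its gene. Differences were counted at 2-fold. The technical SD of a difference combines the errors of its 2 arrays. Each error is the probe's own SD over repeated spots or, for a single spot, the scanner software's error (0.144 to 0.314). The SD pooled over all repeated probes was 0.084 to 0.12 per array and served only to judge whether values moved between alternatives. Precision is limited by the number of arrays, 1 per group, and no test between groups was made.

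The members, pathway lists, markers and alternatives were chosen with earlier results of these data known. Named were all members and, from each list and comparison, up to 4 genes with the largest difference and 2 with the largest bound. Further list genes, among them Smad9, Fkbp1a, Inha, Inhbb, Mstn, Nodal, Trim33, Furin, Thbs1 and Itgav, were named after their values were seen where a count took them in. The same holds for the markers Fbln1, Kdr, Lyz2, Cd3e and Csf1r. Ctgf is listed under its current name Ccn2 and was counted among the response genes; a gene of that list and a marker are not reported here by name. Alternatives were normexp background correction (offset 50, limma 3.58.1 in R 4.3.3), the deposited table, quantile normalization, another percentile, no filter on dim probes, means over probes, outlier spots kept and a 4-fold threshold. The further Tgfbr2 probe was added as an alternative after seeing the data. Scripts ran in Python 3.11.15 and were tested on simulated data.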

Additional observations from a re-analysis of the deposited data

How the results depend on the processing

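Of the recomputed counts of members past 2-fold, 60 were as reported and 12 were not. With the deposited scaling, 0 members were at least 2-fold lower in crypt minus intestine, 1 (Smad4) was lower in y-organoid minus crypt and 2 (Smad2 and Smad4) were higher in o-organoid minus y-organoid; that scaling shifts all genes, as the report gives. With no filter on dim probes, so that dim signals counted as measured, 5 were lower in crypt minus intestine, 3 higher and 1 lower in both y-organoid minus crypt and o-organoid minus crypt, and 1 higher in o-organoid minus y-organoid. Of all 30107 genes without that filter, 4356 were lower in crypt minus intestine. In y-organoid minus crypt 5618 were higher and 2875 lower, in o-organoid minus crypt 2338 and 3834, and in o-organoid minus y-organoid 1732 were higher. With means over probes 1 (Tgfbr2, -1.16) was lower in o-organoid minus y-organoid, and with the further Tgfbr2 probe, an alternative chosen after seeing the data, also 1 (-2.40). At 4-fold 0 were lower in crypt minus intestine. Tgfbr2 lay between -1.85 and -0.91 in crypt minus intestine, between 2.10 and 3.52 in y-organoid minus crypt and between 2.37 and 2.88 in o-organoid minus crypt over the alternatives other than the further probe. The bound on Smad7 lay between 3.67- and 11.9-fold for o-organoid and between 2.21- and 9.70-fold for y-organoid, lowest with normexp. In crypt minus intestine, bounds of list genes were lower with normexp too, among them Lrrc32 (12.7-fold), Eng (5.50-fold) and Fn1 (37.4-fold). Smad1 turned to 0.14 in y-organoid minus crypt and to -0.11 in o-organoid minus y-organoid with means over probes, since its probes disagree. Among values of single genes, 384 moved by more than the pooled SDs of the 2 arrays combined, and 448 did not. Bounds depend on each array's lowest signal above background, so dim members such as Tgfb2, Tgfb3 and Tgfbr3 have no order among the organoid and crypt arrays. No paired analysis was possible because the labels give no replicate numbers and each group has 1 array, and for the same reason no array could be left out.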
